A study of Mus musculus with 4 samples.

Results

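The genes described here are 6 members of the Nodal signalling pathway, chosen by name from the 23235 gene symbols with values: the ligands Nodal and Gdf3, the co-receptor Tdgf1, and the secreted inhibitors Lefty1, Lefty2 and Cer1. All 6 had a row in the deposited table. RNA came from mouse cells of strain 129S4/SvJae (J1 background), with 1 rRNA-depleted library per group. Embryonic stem (ES) cells taken at day 0 were wild type (WT_ES) or lacked DNMT3A and DNMT3B (labelled DNMT3A/B DKO; DKO_ES), the enzymes that set new DNA methylation. ES-derived neural progenitor cells taken at day 6 (WT_NP and DKO_NP) came from the same lines after 4 days as embryoid bodies and 2 days with retinoic acid. The ES cell medium held serum and leukemia inhibitory factor, and cells were kept first on irradiated feeder cells and later on gelatin. The number of knockout clones behind the DKO line is not given in the sources used here, and no difference below has a replicate check.

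Nodal is a ligand of the TGF-beta family that binds type I and type II activin receptors on the cell surface. Tdgf1, also known as Cripto, is the membrane-anchored co-receptor that Nodal needs, and Gdf3 is a related ligand that also signals through it. The activated receptors phosphorylate SMAD2 and SMAD3, which act in the nucleus with SMAD4 and FOXH1. Lefty1 and Lefty2 are targets of the pathway whose proteins block it, so that they form a negative feedback loop, and Cer1 is an antagonist made in the mouse embryo by the anterior visceral endoderm. In mouse ES cells the pathway is active in culture, and in the embryo it holds back neural differentiation and forms mesendoderm.

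Lefty1 and Lefty2 lie close together on chromosome 1 and are close copies, so reads of 50 cycles could not always be placed between them. Their coding sequences are both 1104 bases long and differed at 90 positions, an identity of 91.8%. Of the 1571 windows of 50 bases in the longest annotated Lefty1 transcript, 281 (17.9%) were identical in Lefty2, and 596 (37.9%) matched it with at most 2 differences. Of the 2424 windows of Lefty2, 282 (11.6%) were identical in other genes, 281 of them in Lefty1. Shown is the stretch of 60 coding bases within 1 exon where the copies differ most, at 18 positions, marked by capitals (build GRCm38, GENCODE transcripts).
Lefty1, chr1:180935143-180935202, plus strand: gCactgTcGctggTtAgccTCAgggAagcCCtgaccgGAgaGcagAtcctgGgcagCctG
Lefty2, chr1:180893217-180893276, plus strand: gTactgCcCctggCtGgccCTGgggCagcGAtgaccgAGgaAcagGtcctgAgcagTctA
For Tdgf1, 236 of 1883 windows (12.5%) were identical in the pseudogene Tdgf1-ps1, and 442 (23.5%) matched either of its pseudogenes with at most 2 differences. Nodal had no window shared with another annotated transcript, while 42 windows of Gdf3 (2.02%) and 30 of Cer1 (1.78%) were shared. No other annotated gene overlapped any of the 6 genes.

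Promoters of 3 of the 6 genes, from 250 bases before to 50 bases after the start, were in the RefSeq table (GRCm38.p6). They are shown because the libraries differ in the enzymes that methylate CpG sites, which the capitals mark.
Nodal, chr10:61417722-61418021, plus strand: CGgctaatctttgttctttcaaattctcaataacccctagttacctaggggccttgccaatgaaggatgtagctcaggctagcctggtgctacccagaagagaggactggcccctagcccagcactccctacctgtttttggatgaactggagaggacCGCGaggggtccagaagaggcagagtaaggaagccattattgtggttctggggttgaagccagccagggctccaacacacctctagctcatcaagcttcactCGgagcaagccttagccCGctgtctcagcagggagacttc
Tdgf1, chr9:110946109-110946408, minus strand: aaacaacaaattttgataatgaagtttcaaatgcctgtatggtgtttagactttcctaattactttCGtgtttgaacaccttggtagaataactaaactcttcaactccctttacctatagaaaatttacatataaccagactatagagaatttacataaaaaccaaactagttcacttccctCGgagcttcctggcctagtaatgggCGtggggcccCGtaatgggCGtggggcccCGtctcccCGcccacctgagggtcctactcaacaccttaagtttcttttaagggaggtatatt
Cer1, chr4:82885102-82885401, minus strand: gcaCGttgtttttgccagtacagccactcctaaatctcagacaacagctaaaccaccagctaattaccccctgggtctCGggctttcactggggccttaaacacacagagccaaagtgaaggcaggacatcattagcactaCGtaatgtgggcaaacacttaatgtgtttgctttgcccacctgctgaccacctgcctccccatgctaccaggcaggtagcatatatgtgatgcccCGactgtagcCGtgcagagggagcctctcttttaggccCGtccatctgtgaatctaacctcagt
The Nodal promoter held 5 CpG sites, that of Tdgf1 7 and that of Cer1 6, against a median of 7 (quartiles 3 and 20) over 32851 promoters. All 3 were therefore at or below the median in CpG sites. On either strand, the pattern AATNNACA, with any base at N, occurred at 2 places in the Tdgf1 promoter and in neither of the others. This pattern is a loose form of the FOXH1 motif and had a match in 12.2% of all promoters. Both Tdgf1 matches read AATTTACA, and whether FOXH1 binds them was not tested. The SMAD element CAGAC had 1 match in Tdgf1 and 1 in Cer1 (49.6% of promoters), and the GC box GGGCGG 1 match in Tdgf1 (35.7%). The POU octamer ATGCAAAT (1.74%) and the retinoic acid receptor half-site AGGTCA (16.3%) were in none of the 3 windows.

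Levels are FPKM as deposited. Folds are ratios of FPKM after each library was divided by a median scaling factor, with no pseudocount, and their 95% intervals are exact intervals of approximate read numbers, which cover counting error only. A gene was counted as higher or lower where its log2 ratio of scaled FPKM + 1 was at least 1 in size (2-fold), provided that 1 of the libraries compared reached 1 FPKM. The approximate denominators were 14.3, 15.6, 37.6 and 26.0 M reads in WT_ES, DKO_ES, WT_NP and DKO_NP. As deposited, the median log2 ratio of all genes tested was -0.82 for WT_NP against WT_ES, -0.43 for DKO_NP against DKO_ES, -0.06 for DKO_ES against WT_ES and 0.39 for DKO_NP against WT_NP, and folds are relative to these shifts.

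The libraries carried the markers of their labels in part. The 6 pluripotency markers summed to 2624 FPKM in WT_ES and 2609 in DKO_ES, and to 36.3 in WT_NP and 142 in DKO_NP. The 6 neural progenitor markers summed to 24.9 and 31.7 FPKM in the ES libraries, 43.5 in WT_NP and 173 in DKO_NP. The 12 endoderm markers summed to 14.4 (WT_ES) and 8.62 FPKM (DKO_ES) at day 0, and to 141.5 (WT_NP) and 37.5 (DKO_NP) at day 6. In WT_NP this sum was above that of the neural markers, but the lists differ in length and sums do not measure shares of cells. The 5 trophoblast markers summed to 386.5 FPKM in WT_NP, with 167 from Krt8 and 214 from Krt18, and to 267 in DKO_NP. The 8 mesoderm markers summed to 57.4 FPKM in WT_NP against 9.67 in DKO_NP. Listed at 0 were Ttr in both ES libraries, Fabp7 and Foxf1a in WT_ES, and Mesp1 in DKO_NP. Of the targeted genes, Dnmt3a (WT against DKO) had 35.3 against 12.3 FPKM at day 0 and 17.2 against 4.14 at day 6, and Dnmt3b had 140.3 against 13.9 and 9.98 against 5.22.

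In ES cells the co-receptor gene was by far the most abundant of the 6. In WT_ES, Tdgf1 stood at 936 FPKM, rank 206 of 23235 genes, followed by Lefty1 at 150.5 (rank 871), Gdf3 at 58.0 (rank 2311), Nodal at 46.5 (rank 2866) and Lefty2 at 43.7 (rank 3029). Cer1 stood at 0.0413 FPKM, the value of 1 read. In DKO_ES the order was Tdgf1 at 769, Lefty1 at 115, Lefty2 at 96.4, Gdf3 at 54.9, Nodal at 53.0 and Cer1 at 0.0760. Lefty2 was thus the lowest of the 5 expressed genes in WT_ES and the third in DKO_ES. The neighbours Nodal and Lefty2 in WT_ES differed by no more than counting error, with a Lefty2 to Nodal ratio of 0.940 (0.874 to 1.01), and so did Nodal and Gdf3 in DKO_ES (0.965, 0.903 to 1.03).

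In the NPC libraries the order was turned, with the ligands above the co-receptor. In WT_NP, Nodal stood at 3.54 FPKM and Gdf3 at 3.08, above Lefty1 at 1.17, Tdgf1 at 1.16, Lefty2 at 0.910 and Cer1 at 0.0786. In DKO_NP, Lefty1 was first at 5.10 FPKM, above Nodal at 4.72, Gdf3 at 4.04, Lefty2 at 2.51, Tdgf1 at 2.13 and Cer1 at 0.137. Nodal and Gdf3 were close to each other in both NPC libraries (Nodal to Gdf3 ratios of 1.15, 0.965 to 1.37, and 1.17, 0.973 to 1.40). Lefty1 and Nodal in DKO_NP also differed by no more than counting error (1.08, 0.897 to 1.30). Tdgf1 went from 20.2 times the level of Nodal in WT_ES (19.1 to 21.3) to 0.329 times in WT_NP (0.255 to 0.420).

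**Figure D1:**
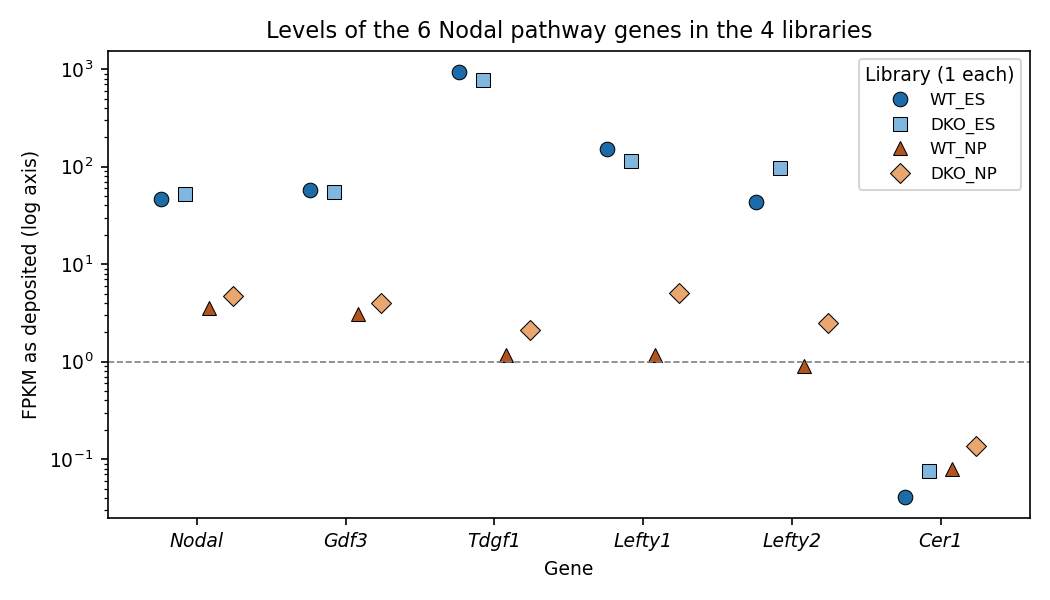
FPKM as deposited (log axis) of the 6 genes, 1 symbol per library, with the dashed line at 1 FPKM. The blue ES symbols of 5 genes sit between 43.7 and 936 FPKM and their orange NPC symbols between 0.910 and 5.10, while all 4 values of Cer1 are below 0.137 FPKM or at it.

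In wild-type differentiation, WT_NP against WT_ES, all members expressed in ES cells were lower, and the co-receptor by far the most. Lower by 2-fold or more were 5 of the 6 genes, and none was higher, while Cer1 was under 1 FPKM in both libraries; of all 14086 genes tested, 11.3% were lower and 16.2% higher. Nodal was 6.67-fold lower (5.86 to 7.61) and Gdf3 9.56-fold lower (8.36 to 11.0). Tdgf1 was 409-fold lower (331 to 512), with the log2 ratio of rank 2 from the lowest among all genes tested. Of the inhibitors, Lefty1 was 65.2-fold lower (51.6 to 83.5; rank 23) and Lefty2 24.4-fold lower (19.6 to 30.7; rank 62). Both ligands thus fell by less than the inhibitors, and the inhibitors by less than the co-receptor. Lefty2 passed the filter only through WT_ES, where it is high; the other 4 were above 1 FPKM in both libraries. As deposited, without scaling, these folds were larger, from 13.1 for Nodal to 804 for Tdgf1. In these bulk samples fewer cells that express a gene and less RNA per cell cannot be told apart.

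In knockout differentiation, DKO_NP against DKO_ES, the same 5 genes were lower. By the 2-fold rule 5 of the 6 were lower and 0 higher, against 11.2% lower and 11.8% higher among all 14050 genes tested. Nodal was 8.14-fold lower (7.13 to 9.31), Gdf3 9.85-fold (8.57 to 11.4) and Tdgf1 262-fold (216 to 319; rank 7 from the lowest). Lefty2 was 27.8-fold lower (23.8 to 32.8) and Lefty1 16.4-fold (14.3 to 18.9). The inhibitors therefore stood in the other order than in wild-type cells, where Lefty1 had the larger fold. Setting the log2 ratios side by side, Lefty1 had -5.39 in wild-type and -3.81 in knockout cells, a difference of 1.57, and it was the only member with a difference of at least 1. Of all 14713 genes at or above 1 FPKM in any library, 4.31% had a difference of at least 1 upwards and 8.81% downwards; Lefty1 was at rank 239 from the highest. The differences of the other expressed members were 0.50 for Tdgf1, -0.04 for Gdf3, -0.28 for Nodal and -0.52 for Lefty2. With a pseudocount of 5 FPKM the difference of Lefty1 was below 1.

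**Figure D2:**
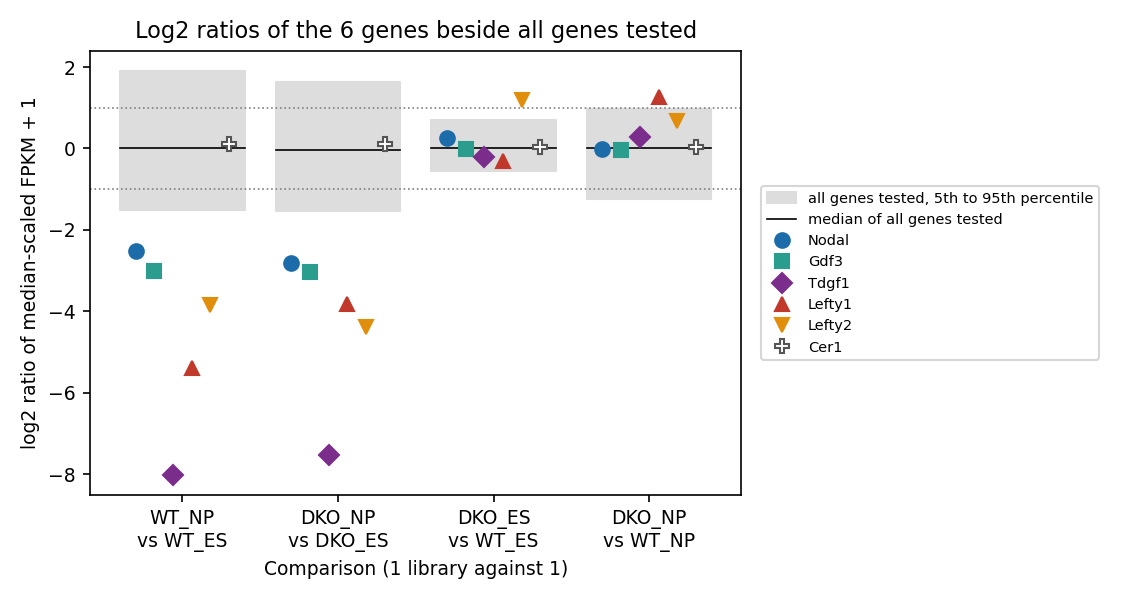
Log2 ratios of median-scaled FPKM + 1 of the 6 genes in the 4 comparisons, 1 library against 1; grey boxes span the 5th to 95th percentile of all genes tested, dotted lines mark a log2 ratio of 1 in size, and hollow symbols are below 1 FPKM in both libraries. In both differentiation comparisons 5 genes lie below the grey box, down to -8.02 for Tdgf1; Lefty2 lies above it in DKO_ES against WT_ES (1.19) and Lefty1 in DKO_NP against WT_NP (1.27).

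Between the ES libraries the 2 Lefty genes went opposite ways. Lefty2 had 43.7 FPKM in wild-type and 96.4 in knockout ES cells, 2.32-fold higher in the knockout (2.19 to 2.47), at rank 263 from the highest of 13596 genes. Lefty1 stood at 150.5 and 115 FPKM, a ratio of 0.807 (0.768 to 0.848). Of the 6 genes Lefty2 alone was at least 2-fold higher and none was lower, against 2.56% higher and 1.15% lower among all genes tested. The other expressed members were close between the libraries, with ratios of 1.20 for Nodal (1.12 to 1.29), 0.998 for Gdf3 (0.934 to 1.07) and 0.866 for Tdgf1 (0.850 to 0.881). At 3-fold in place of 2-fold, Lefty2 was not counted. The 6 fibroblast markers, read as feeder cells, summed to 61.1 FPKM in WT_ES and 15.7 in DKO_ES with none listed at 0. Tagln made up 40.5 and 9.18 FPKM of these sums, while Thy1 had 4.61 and 4.81. Of the 5 fibroblast markers that passed the filter, 3 were counted as lower in DKO_ES and 2 were not counted. The part of feeder cells in the ratios between the ES libraries was not tested.

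Ratios between genes of the same library do not depend on the scaling. The Lefty1 to Lefty2 ratio was 3.44 in WT_ES (3.24 to 3.66) and 1.20 in DKO_ES (1.14 to 1.26). The Lefty2 to Nodal ratio was 0.940 in WT_ES and 1.82 in DKO_ES (1.72 to 1.93), while Lefty1 to Nodal went from 3.24 (3.04 to 3.45) to 2.18 (2.05 to 2.31). The FPKM of Lefty1 and Lefty2 summed to 194 in wild-type and 212 in knockout ES cells, 1.15-fold higher in the knockout after scaling. Their sum thus differed less than Lefty2 alone. In NPCs the sum was 2.08 FPKM in wild-type and 7.61 in knockout cells, 2.70-fold higher, and with differentiation it was 47.4-fold lower in wild-type and 20.2-fold lower in knockout cells. How the authors' program divided reads that fit both genes is not given in the sources used here, and its part in the opposite directions, in the NPC difference of Lefty1 and in the order of the Lefty folds was not tested.

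Between the NPC libraries Lefty1 was higher in the knockout and the ligands differed little. Lefty1 had 1.17 FPKM in wild-type and 5.10 in knockout NPCs, 3.21-fold higher (2.45 to 4.25), at rank 420 from the highest of 13601 genes. Of the 6 genes Lefty1 alone was counted as higher and none as lower, against 4.76% higher and 7.99% lower among all genes tested. Lefty2 stood at 0.910 and 2.51 FPKM, a fold of 2.04 (1.56 to 2.68), but with the pseudocount its log2 ratio was 0.68 and it was not counted. Tdgf1 stood at 1.16 and 2.13 FPKM, 1.35-fold higher (1.01 to 1.82), or 1.25-fold with upper-quartile scaling, where the interval included 1 (0.932 to 1.68). Nodal (0.984, 0.828 to 1.17) and Gdf3 (0.968, 0.804 to 1.16) had ratios near 1 after scaling, which were 1.33 and 1.31 as deposited, so that their direction depends on the scaling. Within the library, the Lefty1 to Nodal ratio was 0.331 in WT_NP (0.252 to 0.431) and 1.08 in DKO_NP.

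Markers of pluripotent cells and of neural progenitors were both higher in DKO_NP, as Lefty1 was. Of the 6 pluripotency markers, 4 were counted as higher in DKO_NP than in WT_NP and none as lower, with a median log2 ratio of 1.23 against 0.01 over all genes. Of the 6 neural markers, 5 were higher and none lower, with a median of 1.47. Pou5f1, the central pluripotency factor, was not among the 4 (11.04 and 23.4 FPKM, log2 ratio 0.61). Nor was Utf1, whose log2 ratio with the pseudocount was 0.92. Lefty1 was 10.6% of Pou5f1 in WT_NP and 21.8% in DKO_NP, against 13.8% in WT_ES and 9.99% in DKO_ES. This share depends on the marker, since Pou5f1 had the smallest DKO_NP to WT_NP fold of the 6 (1.56). The others had 2.25 (Utf1), 2.52 (Nanog), 3.01 (Esrrb), 3.42 (Sox2) and 5.49 (Zfp42), beside 3.21 for Lefty1. Tdgf1 was 86.2% and 66.7% of Pou5f1 in the ES libraries and 10.5% and 9.12% in the NPC libraries, lower in both genotypes. Nodal went the other way, from 4.27% and 4.59% of Pou5f1 in WT_ES and DKO_ES to 32.1% in WT_NP and 20.2% in DKO_NP. Of the 12 endoderm markers 7 were lower in DKO_NP and none higher. The part of any of these cell types in the Lefty1 level was not tested. The counting of Lefty1 as higher also ended at 3-fold and with a pseudocount of 5 FPKM.

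**Figure D3:**
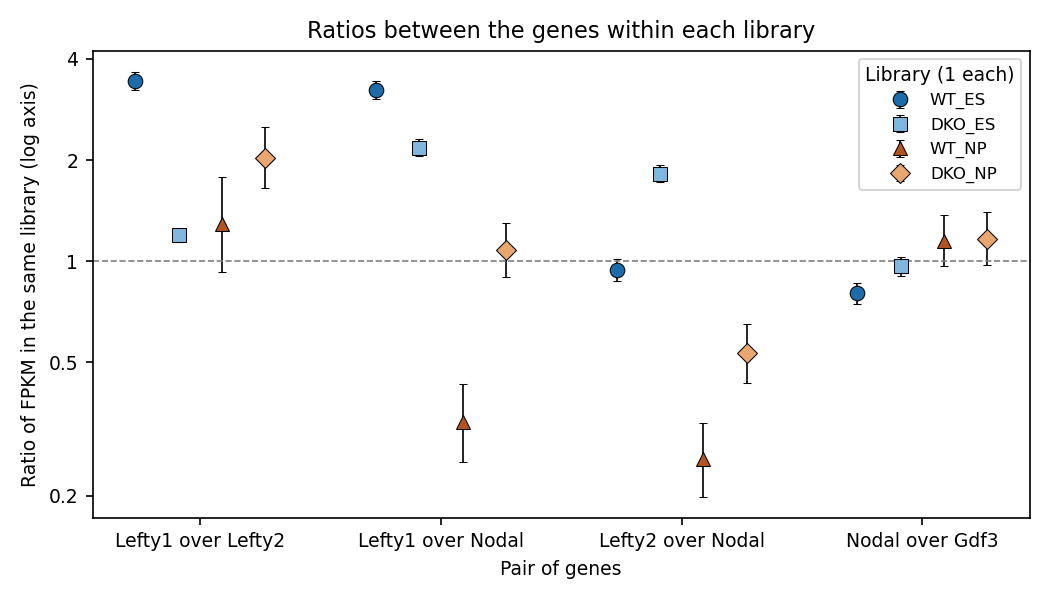
Ratios of FPKM between pairs of genes in the same library (log axis), 1 symbol per library, with exact 95% intervals from approximate reads that cover counting error only. Lefty1 over Lefty2 falls from 3.44 in WT_ES to 1.20 in DKO_ES, Lefty2 over Nodal rises from 0.940 to 1.82, and Nodal over Gdf3 stays between 0.801 and 1.17 in all 4 libraries.

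Cer1 was at the limit of detection throughout. Its 4 FPKM values, from 0.0413 to 0.137, are whole multiples of 1 read and correspond to 1 (WT_ES) and 2 reads (DKO_ES) in ES cells and to 5 (WT_NP) and 6 reads (DKO_NP) in NPCs. For a 2 kb gene, 3 reads amount to 0.105 FPKM in WT_ES and 0.0399 in WT_NP. The ratio of WT_NP to WT_ES was 3.74 with an interval from 0.418 to 177, and no difference of Cer1 was detectable at this depth. In WT_NP, where Cer1 had 5 reads, 11 of the 12 endoderm markers were at or above 1 FPKM.

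The genes whose pattern over the 4 libraries was most like each member were found by the root mean square difference of centred log2 scaled FPKM + 1 among 9938 genes with a mean of at least 5 FPKM. For Nodal they were Actn3 (0.06), Zfp534 (0.07) and Ephx2 (0.08). For Gdf3 they were Socs3 (0.08), Cmah (0.08) and Cdyl2 (0.10). Lefty1 was nearest to Nr0b1 (0.13) and Esrrb (0.14), both genes of naive pluripotent cells, and to L1td1 (0.26). Lefty2 was nearest to Nupr1 (0.11), Morc1 (0.14) and Sept1 (0.24), with 44.9, 34.5 and 37.0 FPKM (WT_ES) and 83.5, 61.9 and 75.1 FPKM (DKO_ES). The microRNA genes Mir762 (0.40), Mir290 (0.73) and Mir135a-1 (0.90) came closest to Tdgf1, each listed at 0 in both NPC libraries. Cer1 was nearest to genes that hardly varied, such as Ptdss2 (0.01), since its own log2 values were all near 0. Among the members, Nodal and Gdf3 were nearest to each other (0.20) and Lefty1 to Lefty2 next (0.62).

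Of 37 other genes of the pathway, most did not follow the 6. In WT_NP against WT_ES, 8 of the 31 that passed the filter were counted as higher and 7 as lower. Among all genes tested, 16.2% were higher and 11.3% lower. The median log2 ratio of the 31 was 0.14 against 0.01 over all genes. As deposited, where the median over all genes was -0.82, the counts were 5 higher and 13 lower. In DKO_NP against DKO_ES, 7 of 29 were higher and 5 lower, against 11.8% and 11.2% of all genes tested. The median was -0.00 against -0.03. As deposited, with a median of -0.43 over all genes, the counts were 5 and 7. In DKO_ES against WT_ES, 1 of 28 was lower and none higher, against 1.15% lower and 2.56% higher among all genes tested. The median was -0.06 against 0.01. In DKO_NP against WT_NP, 1 of 29 was higher and 5 lower, against 4.76% and 7.99% of all genes tested. The median was -0.06 against 0.01. As deposited, with a median of 0.39 over all genes, the counts were 2 and 2. Shares over all genes were not computed for the counts as deposited.

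Of 4 receptors, 3 passed the filter, and all 4 signal transducers did. In WT_NP against WT_ES, 1 of each was counted as higher and none as lower, against 16.2% higher and 11.3% lower among all genes tested. In DKO_NP against DKO_ES, 2 receptors and 1 transducer were counted as higher and 1 transducer as lower, against 11.8% and 11.2%. As deposited the wild-type count turned to none higher and 2 lower, Acvr1b (a type I receptor; log2 ratio -1.31) and Foxh1 (-1.90). Acvr2a, a type II activin receptor, was 3.16-fold higher in WT_NP (6.29 FPKM in WT_ES, 10.1 in WT_NP) and 2.99-fold higher in DKO_NP (7.05 and 15.3), though as deposited the log2 ratio in wild-type cells was 0.61. Acvr2b, the other type II receptor, was 2.19-fold higher in DKO_NP than in DKO_ES (38.1 and 23.9 FPKM), but as deposited its log2 ratio was 0.65, short of 2-fold. In WT_NP its log2 ratio was 0.71, which was -0.24 as deposited. Smad3 was 3.92-fold higher in wild-type (11.1 and 22.1 FPKM) and 3.61-fold in knockout cells (10.1 and 26.4); its log2 ratio as deposited was 0.93 in wild-type cells. Foxh1, the DNA-binding partner of the SMADs, was 2.60-fold lower in DKO_NP than in DKO_ES (10.9 and 39.1 FPKM). In wild-type cells Foxh1 was 2.06-fold lower in WT_NP than in WT_ES (8.33 and 33.8 FPKM). With the pseudocount this log2 ratio was -0.99 after scaling, so that it was not counted, but -1.90 as deposited. None of the 3 receptors and 4 transducers that passed the filter was counted between genotypes on either day, and Acvr1c, the receptor that did not pass, was below 1 FPKM in all 4 libraries.

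Other ligands and the convertases differed more. Inhbb, which encodes the beta subunit of activin B, stood at 16.9 FPKM in WT_ES and 0.0597 in WT_NP. In knockout cells it stood at 11.4 (DKO_ES) and 0.242 (DKO_NP). The log2 ratios were -3.67 and -2.99, and Inhbb passed the filter only through the ES libraries, where it is high. Cfc1, the Tdgf1-related co-receptor Cryptic, had 0.305 FPKM in WT_ES and 1.65 in WT_NP, a log2 ratio of 1.49, and passed the filter only through WT_NP. In knockout cells it was below 1 FPKM at both times (0.701 in DKO_ES, 0.629 in DKO_NP). It was 3.55-fold lower in DKO_NP than in WT_NP. With the pseudocount its log2 ratio was -1.03 after scaling and -0.70 as deposited, so that it was not counted as deposited. Gdf1, a ligand that pairs with Nodal, stood at 6.46 FPKM in WT_ES and 0.783 in WT_NP, 4.19-fold lower. It passed this filter only through WT_ES, where it is high. Gdf1 also shares its locus with the ceramide synthase gene Cers1, so reads of the pair may be mixed. Pcsk6, a convertase that cleaves the Nodal precursor, was 3.83-fold lower in WT_NP than in WT_ES (1.92 and 14.4 FPKM). It stood at 6.15 FPKM in DKO_NP, 2.37-fold higher than in WT_NP. This log2 ratio of 1.01 was at the threshold. Pcsk6 was not counted with upper-quartile scaling, with a pseudocount of 5 FPKM or at 3-fold.

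Among 13 negative regulators the directions were mixed. Smad7, the inhibitory SMAD, stood at 41.0 FPKM in WT_ES and 6.80 in WT_NP, 3.07-fold lower, and was 3.79-fold lower in knockout cells (27.3 and 5.22 FPKM). Fst, which encodes the activin-binding protein follistatin, was higher, 5.17-fold from WT_ES to WT_NP (1.64 and 4.31 FPKM) and 6.44-fold from DKO_ES to DKO_NP (1.64 and 7.68). Dact2, which in zebrafish lowers Nodal receptor levels, had 13.4 FPKM in WT_ES against 30.5 in WT_NP, 4.49-fold higher, but 8.53 in DKO_ES against 6.88 in DKO_NP, and was 6.01-fold lower in DKO_NP than in WT_NP. Pmepa1, a TGF-beta target that holds back SMAD2 and SMAD3, had 6.88 FPKM in wild-type and 2.35 in knockout ES cells, 2.78-fold lower, the 1 pathway gene counted between the ES libraries.

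Of 10 genes known to respond to Nodal or activin, 6 passed the filter in WT_NP against WT_ES. Of these, 3 were counted as higher and 1 as lower, against 16.2% and 11.3% of all genes tested. In DKO_NP against WT_NP 5 passed, with 3 counted as lower and none as higher, against 7.99% and 4.76%. Otx2, a factor of the epiblast and forebrain, stood at 29.4 FPKM in WT_ES and 0.827 in WT_NP, 18.1-fold lower. There it passed the filter only through WT_ES, where it is high. In knockout cells Otx2 was 20.1-fold lower (34.4 and 1.24 FPKM). Foxa2, a factor of endoderm and floor plate, stood at 0.0661 FPKM in WT_ES and 7.47 in WT_NP, with a log2 ratio of 3.53, and at 2.42 in DKO_NP, 4.18-fold lower than in WT_NP. Lhx1, a factor of node and anterior mesendoderm, was listed at 0 in WT_ES. It had 4.33 FPKM in wild-type and 1.90 in knockout NPCs, 3.09-fold lower in the latter. In both differentiation comparisons, Foxa2 and Lhx1 passed the filter only through the NPC libraries, where they are high. As deposited, the genotype log2 ratio of Lhx1 with the pseudocount was -0.88, so that it was not counted, while that of Foxa2 was -1.31. The streak genes Brachyury (T), Mixl1 and Gsc were below 1 FPKM in all 4 libraries. Foxa2 also belongs to the endoderm markers, which were lower in DKO_NP as given above; their part in its difference was not tested.

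**Figure D4:**
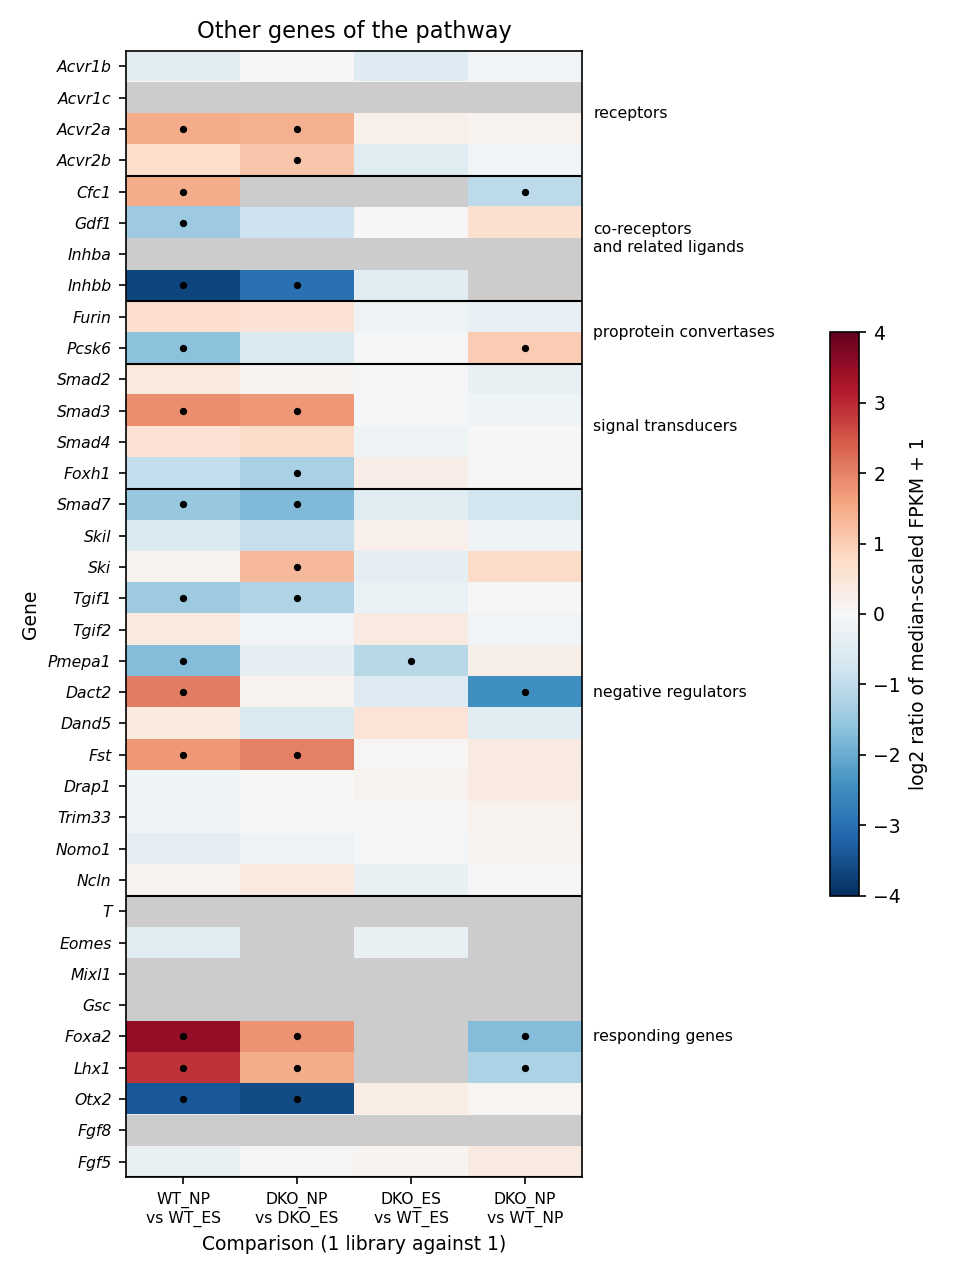
Log2 ratios of median-scaled FPKM + 1 (colour, from -4 to 4) of other pathway genes, in rows by role, in the 4 comparisons of 1 library with 1; dots mark ratios of at least 1 in size and grey cells are below 1 FPKM in both libraries. The differentiation columns hold both colours, with Inhbb (-3.67) and Otx2 (-3.38) among the lowest and Foxa2 (3.53) the highest in wild-type cells, and the DKO_ES column has a dot only at Pmepa1.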

How the data were processed

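RNA was rRNA-depleted, made into TruSeq libraries with 15 PCR cycles and sequenced as single-end reads of 50 cycles, per the labels' protocols. The authors deposited FPKM (reads scaled by gene length and library depth) in 1 table; Bowtie, TopHat and mm9 are named in the submitters' processing notes, without versions. Not given in the sources used here: the program that computed FPKM, its annotation, its handling of strand. Of 23253 rows, 18 are blank and were left out; 0 value columns were left unmapped. The factors of the median scaling (library over the geometric mean of all 4, genes at or above 1 FPKM in all) were 1.32, 1.25, 0.671 and 0.908 for WT_ES, DKO_ES, WT_NP and DKO_NP. No test was run, since each group holds 1 library.

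Relative depths came from steps of values below 0.3 FPKM: 1849 of 2323 low genes (79.6%) were whole multiples of 1 read within 0.04. GENCODE M21 lengths of 535 genes with 1 annotated transcript gave estimates of the WT_ES denominator. The median of the 219 genes in the fullest window of 10% was used. Over all 535 genes the median was 13.4 M, with 10th and 90th percentiles of 6.95 and 14.9 M. PCR copies are not independent molecules, so intervals cover counting error only. Read numbers are rough, because transcript lengths of another build were used. Scripts used Python 3.11.15, pandas 2.3.3 and SciPy 1.17.1, and the ratio step was tested on simulated data. The members, gene lists and thresholds were chosen with earlier results of these data known. Pathway genes were named by the size of their log2 ratio, up to 4 per role; a few results on single genes and sequences, counted in the lists, are not reported here.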

Additional observations from a re-analysis of the deposited data

Results flagged for a closer look

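For 2 genes the genotype ratio went opposite ways on the 2 days, beyond counting error with median scaling. Lefty1 had a DKO to WT ratio of 0.807 in ES cells and 3.21 in NPCs. Tdgf1 had a ratio of 0.866 in ES cells and 1.35 in NPCs, where its interval reached down to 1.01. With upper-quartile scaling the NPC ratio of Tdgf1 was 1.25 (0.932 to 1.68), within counting error, while Lefty1 had 0.799 and 2.97 (2.26 to 3.93). As deposited the ratios were 0.766 and 4.34 for Lefty1 and 0.822 and 1.83 for Tdgf1. Reads of Lefty1 are in part shared with Lefty2, and those of Tdgf1 with its pseudogenes. The difference between the days was not tested, since each ratio sets 1 library against 1.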

How the results depend on the processing

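Each count was taken again as deposited, with upper-quartile scaling, with pseudocounts of 0.1 and 5 FPKM, with no filter, with a filter at 5 FPKM and at 3-fold. The 5 members lower in each differentiation comparison were counted under all 7. The single member counted in DKO_NP against WT_NP (Lefty1) and in the difference of differentiation ratios became 0 with a pseudocount of 5 FPKM and 0 at 3-fold, and the one in DKO_ES against WT_ES (Lefty2) became 0 at 3-fold. Of the other pathway genes, the count in DKO_ES against WT_ES went from 1 to 0 with a pseudocount of 5 FPKM and at 3-fold, that in DKO_NP against WT_NP from 6 to 2 under both, and that in DKO_NP against DKO_ES from 12 to 6 at 3-fold. A larger pseudocount shrinks the ratios of low genes by construction. No called log2 ratio of a member changed its sign. No paired analysis was possible because each group holds 1 library. Depth limits Cer1 most, with at most 6 reads per library.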

Other observations

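Values are given for some genes next to the members on the chromosome (nearest protein-coding gene with a value on each side, GENCODE M21), chosen after the values were seen. Beside Gdf3 on chromosome 6, the germ cell and egg factor Dppa3 had 22.4 FPKM in wild-type against 83.4 in knockout ES cells, and 2.09 against 16.6 in NPCs. Dppa3 was thus higher in both knockout libraries, with log2 ratios of 1.91 and 2.23, while Gdf3 had -0.00 and -0.04. Apobec1, on the other side of Gdf3, was 14.6-fold lower in WT_NP than in WT_ES (0.398 and 11.4 FPKM). It passed the filter only through WT_ES, where it is high. Beside Tdgf1, Lrrc2 had 22.7 FPKM in wild-type against 42.6 in knockout ES cells, and 4.85 against 4.19 in NPCs. Eif4ebp2, next to Nodal, differed by less than 2-fold in all 4 comparisons after scaling. In wild-type differentiation it was 1.91-fold lower after scaling (78.8 FPKM in WT_ES and 21.0 in WT_NP), and as deposited by more than 2-fold. In knockout cells it was 1.46-fold lower (56.4 FPKM in DKO_ES and 28.0 in DKO_NP).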
